A study of Mus musculus with 14 samples.

Results

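Top2a, Mki67, Bub1b, Cenpe, Cenpf, Kif20a and Aurkb encode proteins of G2 and mitosis, the stages in which a cell that has copied its DNA condenses its chromosomes, attaches them to the spindle and divides. The 7 genes were chosen by name, with earlier results of these data known, and are described across all groups of the study. Each was represented by 1 Ensembl transcript among the 1399 transcripts listed in every library. Going by its title, the study concerned lysosomal cystine (the disulfide form of cysteine), a nuclear response to cysteine, and ferroptosis, in which cells die of oxidised lipids.

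The material was polyadenylated RNA of mouse embryonic fibroblasts (MEFs), cultured connective tissue cells, sequenced in 14 libraries, 2 in each of 7 groups, all labelled wild type (WT). The first experiment held untreated cells (NT), cysteine starvation (Cys) and full amino acid starvation (AA). The second held a further untreated group (NT2), cysteamine, a drug that depletes lysosomal cystine, cells transfected with a short hairpin RNA against the cystine exporter cystinosin (sh-CTNS, here CTNS knockdown), and cells given sh-CTNS together with a CTNS plasmid (rescue). Sample names alone tie NT to the starvations and NT2 to the remaining treatments, which is an assumption. The labels gave no dose, duration or clone, and the untreated cells of the second experiment are not labelled as transfected, so transfection and knockdown cannot be told apart in comparisons with NT2. Ctns was not among the listed transcripts, and the knockdown itself was not analysed here.

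Genes of this kind are periodic. Their messenger RNAs are low in G0 and G1 and accumulate in G2 and M, when the MuvB complex, first with B-MYB and then with FOXM1, activates promoters that carry a cell cycle genes homology region (CHR) and CCAAT boxes bound by NF-Y. In resting cells the DREAM complex binds the same CHR elements and represses them, and Mki67 and Top2a are widely used as markers of proliferating cells.

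The promoter letters are shown first because they are a feature the 7 genes could share apart from their levels. RefSeq windows of 300 bases, 250 before and 50 after the start on GRCm38.p6, are described for 5 of the 7 genes (Top2a, Mki67, Bub1b, Cenpe and Cenpf). Windows on the chromosome of Kif20a were left out for the 7 genes and the gene lists, and none was available for Aurkb. The counts were made on GRCm39, so the window positions belong to another build. The 250 bases before the start of 4 of the 5 genes are given 5′ to 3′ on the strand of the gene. Capitals mark the CHR letters TTTGAA and the CCAAT box letters CCAAT on either strand, read as TTCAAA and ATTGG when reversed. The windows are chr11:99024190-99024439 (minus strand) for Top2a, chr7:135716380-135716629 (minus) for Mki67, chr1:189688087-189688336 (minus) for Cenpf and chr3:135212313-135212562 (plus) for Cenpe. Each lies immediately upstream of the first exon of the RefSeq transcript.
Top2a: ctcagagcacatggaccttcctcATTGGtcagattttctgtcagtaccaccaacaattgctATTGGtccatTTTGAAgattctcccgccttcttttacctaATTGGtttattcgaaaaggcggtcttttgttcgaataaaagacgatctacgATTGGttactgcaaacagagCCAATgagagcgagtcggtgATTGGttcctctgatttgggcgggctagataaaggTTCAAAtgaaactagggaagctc
Mki67: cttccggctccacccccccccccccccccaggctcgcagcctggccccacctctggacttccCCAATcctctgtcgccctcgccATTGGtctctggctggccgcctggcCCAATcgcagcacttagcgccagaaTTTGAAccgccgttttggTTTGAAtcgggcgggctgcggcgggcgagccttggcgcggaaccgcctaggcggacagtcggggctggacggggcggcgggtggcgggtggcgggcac
Cenpf: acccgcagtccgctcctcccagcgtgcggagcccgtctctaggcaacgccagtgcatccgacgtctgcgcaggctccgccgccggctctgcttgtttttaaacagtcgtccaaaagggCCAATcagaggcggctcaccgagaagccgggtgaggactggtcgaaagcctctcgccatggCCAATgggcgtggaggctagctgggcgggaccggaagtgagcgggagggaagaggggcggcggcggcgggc
Cenpe: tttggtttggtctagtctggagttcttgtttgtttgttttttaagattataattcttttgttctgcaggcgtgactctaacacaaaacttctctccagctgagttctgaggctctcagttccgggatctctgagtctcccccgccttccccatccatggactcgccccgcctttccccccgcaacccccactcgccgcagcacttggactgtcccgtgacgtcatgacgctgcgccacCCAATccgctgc

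CHR letters were present in 4 of the 5 windows and CCAAT letters in 5 of 5. Among all 32851 RefSeq windows of the same length, 17.9% held the CHR letters and 37.4% the CCAAT letters. Top2a held 2 CHR matches, at bases -179 to -174 and -23 to -18 from the start, and 6 CCAAT matches. Mki67 held 2 CHR matches, from -116 to -111 and from -98 to -93, downstream of 3 CCAAT matches. The matches in Bub1b (41 to 46) and Cenpf (3 to 8) lay after the start, in the bases not printed, and Cenpe had 1 CCAAT match at -12 to -8 and none of the CHR letters. Of the 22 windows used for other G2 and mitosis genes of the tables, from 19 of 23 genes, 15 held CHR letters and 13 CCAAT letters. Of the 13 windows of G1/S and DNA replication genes, from 10 of 13 genes, 1 held CHR letters and 10 CCAAT letters. A match of letters is a description of the window and not a binding site, and its absence says only that these letters are not in these bases.

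**Figure D1:**
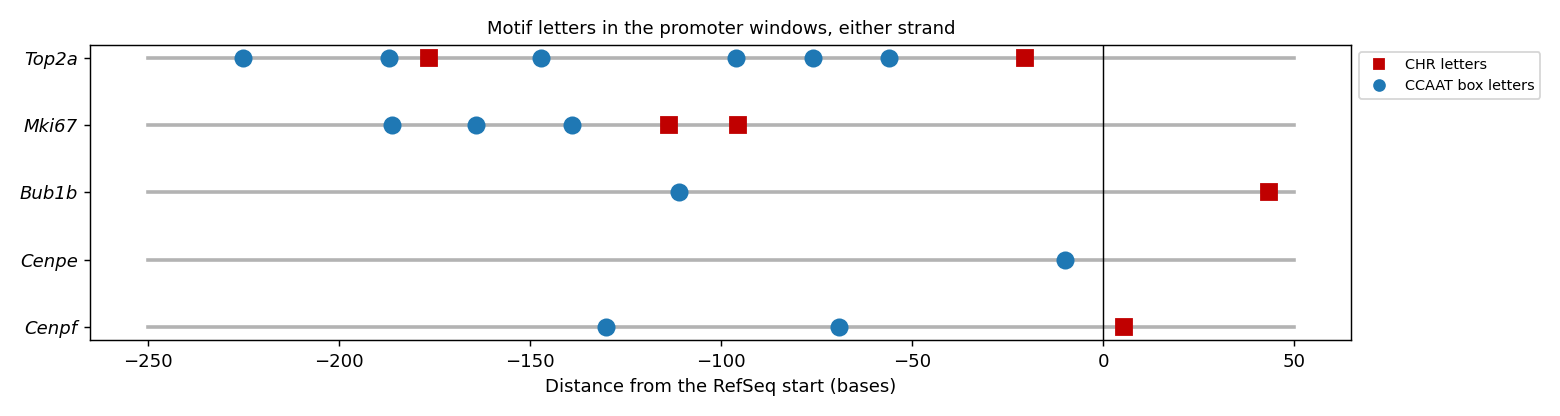
Positions of the CHR letters (squares) and CCAAT box letters (circles), on either strand, along the RefSeq windows of 5 of the genes; the horizontal axis is the distance from the start in bases. Top2a carries the most matches, 2 CHR and 6 CCAAT, and Cenpe carries 1 CCAAT match alone.

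The depth behind the 7 genes differed between the experiments. Listed counts per library summed to 25697 to 51224 in the first and 64530 to 165747 in the second, and since unlisted transcripts are left out these sums are not depths. Each of the 7 genes had 1 to 57 counts per library in the first experiment against 4 to 269 in the second, so the first experiment's values are the less precise. Every listed transcript had at least 1 count in every library, so a loss to 0 cannot be seen in these tables. Levels are CPM, counts relative to a library total that was rescaled with TMM (trimmed mean of M values) factors, and changes are log2 fold changes from edgeR's quasi-likelihood test with their standard errors (SE). A gene was called changed at a Benjamini-Hochberg adjusted p, over 1399 transcripts, below 0.05. Whether the 2 libraries of a group are separate cultures is not labelled, and the p-values measure their spread, which may be technical.

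In the fibroblast identity check, 7 of 13 fibroblast markers were listed (Fn1, Col1a1, Col1a2, Vim, Col3a1, S100a4 and Postn), against 1 of 8 epithelial markers (Cdh1), 1 of 6 muscle markers (Ttn), and 0 of the leukocyte and endothelial markers. A class of 341 transcripts, those whose NT to NT2 count ratio exceeded 2 times the median, took unequal shares of the counts. Its mean share was 75.3% in NT and 9.49% in NT2, an order that the choice of the class fixes, and 47.6% in Cys, 80.8% in AA, 16.8% in cysteamine, 32.3% in knockdown and 40.6% in rescue. None of the 7 genes is in this class (0 of 7). A fit without these transcripts was one of the alternatives. Since NT and NT2 counts chose the class, that fit is not independent of the comparisons with those groups.

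Compared per length of transcript, Top2a was the most abundant of the 7 genes in the NT2 libraries. Its level there was 196 CPM per kb ± 0.111 (SD, n = 2), ahead of Bub1b at 126 ± 8.19. Mki67 at 66.9 ± 0.605, Aurkb at 60.7 ± 5.44 and Kif20a at 56.9 ± 16.4 followed, and the libraries of the neighbouring Aurkb and Kif20a overlapped. Cenpf at 37.8 ± 3.14 and Cenpe at 34.2 ± 5.24 CPM per kb were lowest and did not differ beyond their spread.

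Top2a, which encodes the topoisomerase that untangles sister chromatids, stood at 931 and 294 CPM in the NT libraries, 941 and 801 in Cys and 681 and 352 in AA. In the second experiment it was measured at 1025 and 1026 CPM in NT2, 1083 and 1196 in cysteamine, 1168 and 995 in knockdown and 957 and 731 in rescue. The NT pair spanned nearly the whole range of the first experiment, and its second library rested on 3 counts. In the second experiment the rescue libraries were both below the others.

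Mki67, the gene of the Ki-67 protein that coats mitotic chromosomes, was at 358 and 882 CPM in NT, 314 and 175 in Cys and 136 and 308 in AA. Its values were 669 and 678 in NT2, 592 and 623 in cysteamine, 685 and 840 in knockdown and 626 and 793 in rescue. Both starved groups lay below both NT libraries, while the second experiment's groups lay close together with rescue overlapping NT2.

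Bub1b encodes BUBR1, the spindle checkpoint protein that delays anaphase until kinetochores are attached. It was at 429.8 and 98.0 CPM in NT, 314 and 300.4 in Cys and 68.1 and 219.8 in AA. Group means in the second experiment were 462 CPM ± 30.1 in NT2, 466 ± 32.7 in cysteamine, 463 ± 16.2 in knockdown and 459.9 ± 19.8 in rescue (SD, n = 2 each). No order can be read among these 4 means, which differed by less than the spread within a group.

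Cenpe encodes a kinetochore kinesin that moves chromosomes to the spindle equator. Its level was 322 and 294 CPM in NT, 264 and 175 in Cys and 136 and 87.9 in AA, so the 3 groups did not overlap and stood in that order. It was 242 and 300.1 in NT2, 320.2 and 267 in cysteamine, 339 and 374 in knockdown and 246 and 285 in rescue, with the knockdown libraries above every other library of the experiment.

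Cenpf, a large coiled-coil protein of the nuclear matrix and outer kinetochore, was at 251 and 489.8 CPM in NT, 413 and 200.3 in Cys and 136 and 264 in AA, with all 3 groups overlapping. In the second experiment it read 396 and 445 in NT2, 603 and 565 in cysteamine, 791 and 685 in knockdown and 673 and 533 in rescue. All 6 libraries of the treated groups were above both NT2 libraries. In rising order the means were 421 CPM ± 35.0 in NT2, 584 ± 27.0 in cysteamine, 603 ± 99.2 in rescue and 738 ± 74.9 in knockdown (SD, n = 2 each), of which the cysteamine and rescue libraries overlapped.

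Kif20a encodes a kinesin of the central spindle needed for cytokinesis. It was the lowest but one by counts, at 143 and 196 CPM in NT, 231 and 150.2 in Cys and 136 and 44.0 in AA. The second experiment gave 166 and 252 in NT2, 187 and 236 in cysteamine, 158 and 219 in knockdown and 85.3 and 149 in rescue. Only the rescue libraries were separate, both below every other library of that experiment.

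Aurkb encodes Aurora B, the kinase of the chromosomal passenger complex, which corrects wrong spindle attachments. With 1 to 4 counts per library in the first experiment, its levels there (35.8 and 196 CPM in NT, 49.5 and 100.1 in Cys, 68.1 and 44.0 in AA) show no order. In the second experiment it had 28 and 26 counts in NT2, 21 and 24 in cysteamine, 18 and 16 in knockdown and 4 and 5 in rescue. The corresponding levels were 111 and 126 CPM, 112 and 107 CPM, 136 and 146 CPM, and 37.9 and 61.9 CPM. Knockdown was highest and rescue lowest, and the rescue libraries lay well below the other 6.

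**Figure D2:**
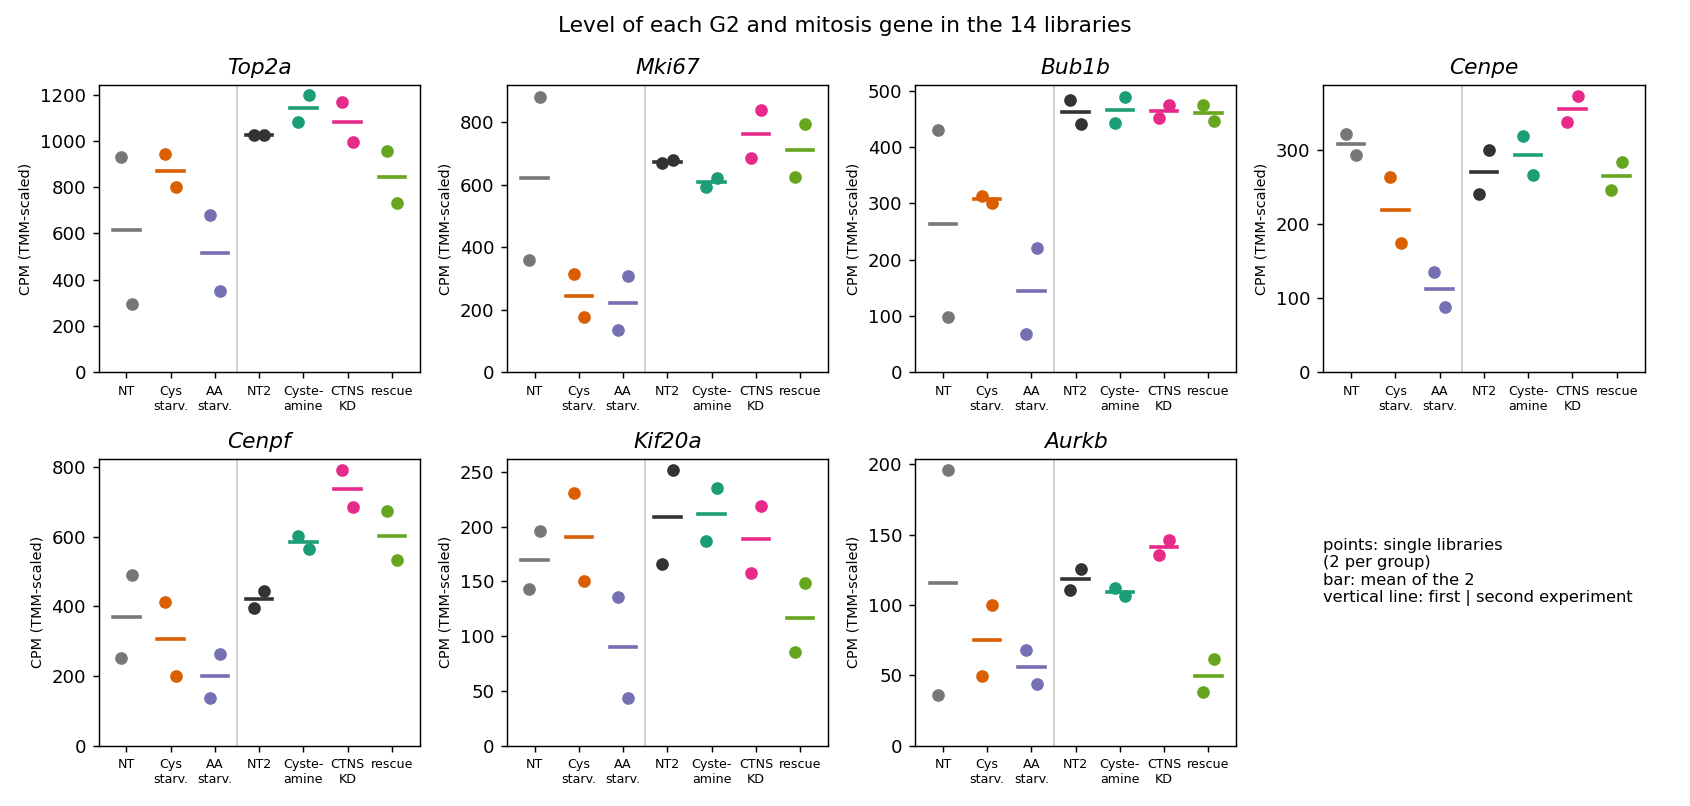
Level of each gene in CPM after TMM scaling (vertical axes, from 0) in the 14 libraries, by group; points are single libraries, bars the mean of 2, and the vertical line separates the experiments. Cenpf is higher in knockdown (791 and 685 CPM) than in NT2 (396 and 445), and Aurkb is lowest in rescue (37.9 and 61.9) within the second experiment.

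The first comparison asked what cysteine starvation did to these genes. None was called against NT by edgeR's quasi-likelihood test (0 of 7, smallest adjusted p 0.322), as was no transcript of the tables (0%), although 16.4% of all transcripts and 0 of the 7 genes had an unadjusted p below 0.05. Mki67 had the largest difference, -0.98 ± 0.47 (SE) on the log2 scale, with a 95% interval of -1.97 to 0.00264. Mki67 and Cenpe (-0.46 ± 0.43) were below NT in both libraries, 2 of 7 genes, beside 21.1% of all transcripts. Top2a stood at 0.26 ± 0.38, Kif20a at 0.31 ± 0.65 and Cenpf at 0.03 ± 0.49, so 3 genes were above 0 and 4 below. The median of the 7 was -0.13, beside 0.01 over all transcripts. Scaling by library totals instead moved the median of the 7 to 0.54 and that of all transcripts to 0.70, and put 6 of the 7 above 0.

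Full amino acid starvation gave lower fitted values for all 7 genes against NT, and none passed the test. The log2 differences ran from -1.54 ± 0.67 for Cenpe (adjusted p = 0.607, edgeR) to -0.57 for Aurkb, with Mki67 at -1.08 ± 0.61, Bub1b at -1.07 ± 0.65 and Top2a at -0.60 ± 0.49. Their median was -0.96, beside 0.05 over all transcripts, of which 57.5% were above 0. No transcript of the tables was called (0%), and at an unadjusted p below 0.05 stood 1 of the 7 genes, Cenpe, beside 7.79% of all. Mki67, Cenpe and Kif20a were lower than NT in both libraries, 3 of 7 genes beside 14.6% of transcripts. Kif20a had 3 counts in AA and 6 in NT, a ratio of 0.509 with an exact 95% interval of 0.0824 to 2.38, and Aurkb had 2 and 3 counts, a ratio of 0.679 (0.0567 to 5.93); these intervals cover counting error only. Without the first NT library 5 of the 7 differences were below 0, and without the second 6 of 7.

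For 5 of the genes (Top2a, Mki67, Bub1b, Cenpf and Aurkb) the NT libraries differed from each other by more than the group means of the first experiment did. The second NT library had 25 counts over the 7 genes and the first 69, and the 341-transcript class held 86.8% and 63.8% of their counts. Summed over the 7 genes, the libraries read 2471 and 2449 CPM in NT, 2525 and 1903 in Cys and 1361 and 1319 in AA. The likeness of the NT pair on this scale rests on TMM factors of 0.821 and 0.397. As shares of listed counts the 7 genes made up 0.203% and 0.0973% in NT, 0.299% and 0.162% in Cys and 0.0650% and 0.0667% in AA. The mean of Cys was thus above that of NT on the share (0.230% against 0.150%) and below it on the scaled level (2214 against 2460 CPM), with overlapping libraries on both. In bulk RNA, fewer cells in G2 and mitosis and less of these messages per cell cannot be told apart.

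**Figure D3:**
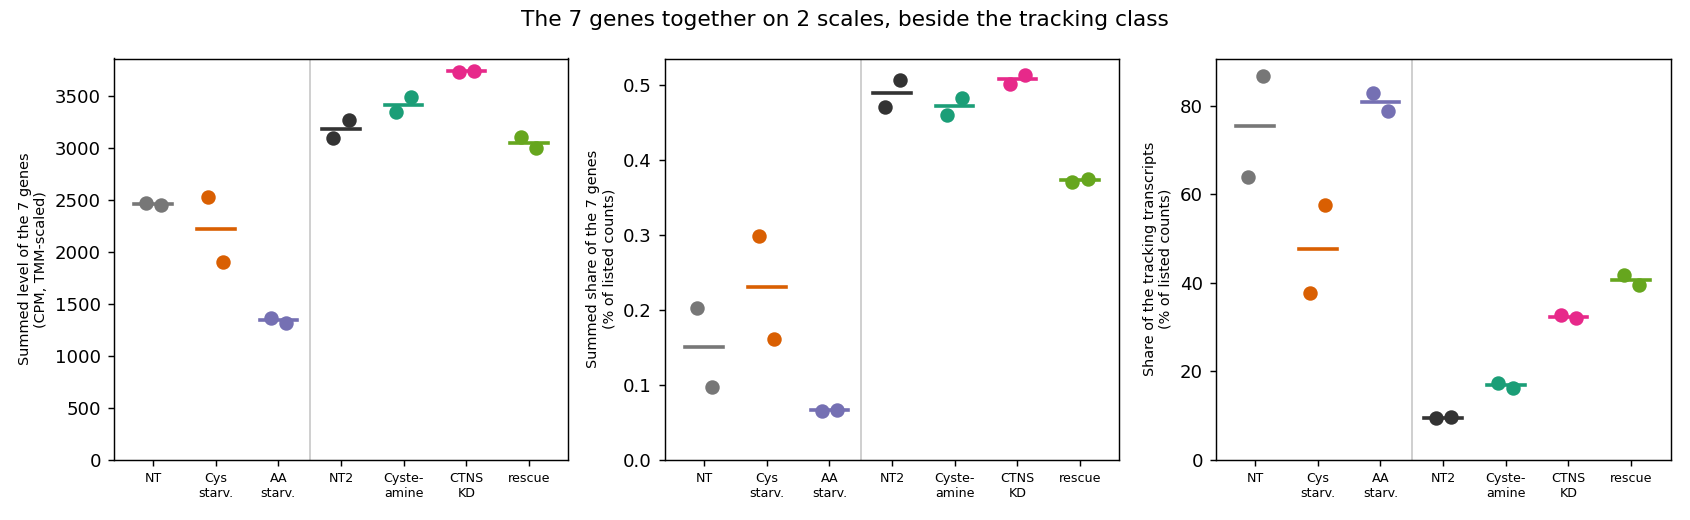
Summed level of the 7 genes in CPM after TMM scaling (left), their share of listed counts in percent (middle) and the share of the 341-transcript class, named tracking transcripts in the plot (right), in each library; bars are means of 2. AA is lowest on both scales of the 7 genes, and the class takes its highest mean share, 80.8%, in the same group.

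Set directly against each other, the starvations differed in the same direction for all 7 genes, with higher fitted values under cysteine starvation than under full starvation (6 of 7 without the 341 transcripts, and 5 to 7 with 1 library left out). None was called (0 of 7, beside 15.0% of all transcripts, by edgeR). Differences were 1.28 ± 0.83 for Kif20a, 1.08 ± 0.63 for Cenpe, 0.94 ± 0.59 for Bub1b and 0.85 ± 0.43 for Top2a (adjusted p = 0.185, the smallest of the 7), and their libraries did not overlap, 4 of 7 genes beside 25.7% of transcripts that were higher in this way. Cenpf at 0.61 ± 0.56, Aurkb at 0.38 ± 0.98 and Mki67 at 0.10 ± 0.58 overlapped. The Kif20a difference rested on 20 counts against 3, a ratio of 2.48 with an exact interval of 0.736 to 13.05. With library totals in place of TMM, 5 of the 7 (Top2a, Bub1b, Cenpe, Cenpf and Kif20a) were called higher, beside 474 of 1399 transcripts. The median of all transcripts then moved from 0.05 to 1.09 and that of the 7 from 0.85 to 1.90. Among markers, Cdh1 (-2.81, adjusted p = 0.0366), Ttn (-2.05, adjusted p = 0.00511) and Postn (-2.41, adjusted p = 0.0109), all in the 341-transcript class, were called lower under cysteine than under full starvation. Summed fibroblast markers ran from 29278 to 32118 CPM in Cys and from 14836 to 23125.5 in AA, and the part of these markers was not tested. Both starvation comparisons share the NT libraries and this one shares the starved libraries with them, so the 3 are not separate evidence.

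None of the 7 genes was called between cysteamine and NT2 (0 of 7, beside 10.5% of all transcripts, by edgeR), and 6 of the 7 had log2 differences between -0.15 and 0.15. Bub1b was at 0.01 ± 0.19, with an interval of -0.39 to 0.41, and Kif20a at 0.03 ± 0.31. Cenpf stood apart at 0.47 ± 0.20 (95% interval 0.05 to 0.90, adjusted p = 0.139), with both cysteamine libraries above both NT2 libraries. Top2a was also higher in both libraries and Mki67 lower in both, which 39.7% and 26.2% of all transcripts were. The Cenpf difference passed the threshold when the second experiment was fitted alone (0.44, adjusted p = 0.0336) and without the 341 transcripts (0.47, adjusted p = 0.0222). The former fit called 225 of 1399 transcripts higher and 150 lower, and the latter 168 of 1058 higher and 159 lower.

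Cenpf was higher after CTNS knockdown. Its level was 738 CPM ± 74.9 against 421 ± 35.0 in NT2 (SD, n = 2 each), a log2 difference of 0.82 ± 0.21 (SE) with an interval of 0.38 to 1.26 and an adjusted p of 0.00805 by edgeR's quasi-likelihood test. It was the 1 gene of the 7 to be called, beside 30.8% of all transcripts called and 17.6% called higher, so a call was common in this comparison. Cenpe at 0.40 ± 0.21 (adjusted p = 0.165), Aurkb at 0.25 ± 0.33 and Mki67 at 0.17 ± 0.21 were, with Cenpf, higher in both libraries, 4 of 7 genes beside 40.2% of transcripts. Top2a (0.08 ± 0.23) and Kif20a (-0.15 ± 0.34) overlapped NT2, and Bub1b was at 0.00018 ± 0.20, with an interval of -0.43 to 0.43. The median of the 7 was 0.17, beside 0.09 over all transcripts.

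The Cenpf call was lost without the first NT2 library (0.73) and without the first knockdown library (0.71). It was kept without the second NT2 library (0.90) and without the second knockdown library (0.91). Library totals (0.64, adjusted p = 0.0816) and limma (0.81, adjusted p = 0.318) also lost the call. DESeq2 (0.87, adjusted p = 0.00258), RLE scaling (0.87, adjusted p = 0.00556) and the second experiment fitted alone (0.74, adjusted p = 0.00136) kept it. So did the minimum mean count (0.92, adjusted p = 0.00676), the replicate block (0.82, adjusted p = 0.00305) and both untreated groups together (1.02, adjusted p = 0.0182). Against the untreated cells of the first experiment the difference was 1.22 (adjusted p = 0.0522), short of the threshold. Without the 341 transcripts, a class chosen in part by the NT2 counts, it was 0.95 (adjusted p = 3.73e-05). That fit called 172 of 1058 transcripts higher and 198 lower. Summed fibroblast markers ran from 10174 to 10244 CPM in knockdown and from 31271 to 34159.6 in NT2, and 5 of the 7 were called lower, among them the collagen genes Col1a1 (-1.48), Col1a2 (-2.84) and Col3a1 (-2.18). The epithelial marker Cdh1 (2.39, adjusted p = 0.0218) and the muscle marker Ttn (1.60, adjusted p = 0.00118), both in the 341-transcript class, were called higher. The part of these markers in the Cenpf difference was not tested.

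In rescue, Aurkb was lower than in NT2. The libraries read 37.9 and 61.9 CPM against 111 and 126, a log2 difference of -1.26 ± 0.48 (95% interval -2.27 to -0.25, adjusted p = 0.0379 by edgeR), on 9 counts against 54. It was the 1 gene of the 7 called, beside 31.5% of all transcripts called and 12.9% called lower. Kif20a, which acts with Aurora B at the central spindle, was at -0.86 ± 0.39 (adjusted p = 0.102), and Cenpf at 0.53 ± 0.22 (adjusted p = 0.0793). Cenpf was called higher without the 341 transcripts (0.74, adjusted p = 0.00325), with a minimum mean count of 20 (0.65, adjusted p = 0.0452) and with the second experiment fitted alone (0.45, adjusted p = 0.0407). In that order, those fits called 136 of 1058, 171 of 897 and 279 of 1399 transcripts higher, and 151, 134 and 299 lower. Top2a, Kif20a and Aurkb were below NT2 in both libraries, 3 of 7 genes beside 34.4% of transcripts, and Cenpf was above it in both. Mki67 (0.06 ± 0.22), Cenpe (-0.03 ± 0.24) and Bub1b (-0.0049 ± 0.21) lay within their error of 0.

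The Aurkb call was lost in each of the 4 fits that left out 1 NT2 or rescue library, where the difference ran from -1.61 to -0.94, with DESeq2 (-1.23) and limma (-1.27), without the 341 transcripts (-1.07), and against NT (-0.71) or both untreated groups (-0.98). Summed fibroblast markers ran from 17699.5 to 17734 CPM in rescue, with 3 of the 7 called lower and Postn called higher (1.54). Ttn was called higher (2.17, adjusted p = 6.04e-05) and Cdh1 was at 1.61 (adjusted p = 0.182). The part of these markers was not tested.

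Rescue against knockdown asks what adding the CTNS plasmid changed. All 7 genes had lower fitted values in rescue and none was called (0 of 7, beside 0.643% of all transcripts, by edgeR). Aurkb had the largest difference, -1.51 ± 0.49 (95% interval -2.55 to -0.47, adjusted p = 0.228), with 9 counts against 34, a scaled ratio of 0.344 and an exact interval of 0.145 to 0.733. Kif20a was at -0.71 ± 0.42, Cenpe at -0.43 ± 0.25, Top2a at -0.35 ± 0.25 and Cenpf at -0.28 ± 0.22. These 4 and Aurkb were lower in both libraries, 5 of 7 genes beside 23.7% of transcripts, while Mki67 (-0.11 ± 0.23) and Bub1b (-0.01 ± 0.23) overlapped. The median of the 7 was -0.35, beside 0.01 over all transcripts. Without the 341 transcripts 6 of the 7 were below 0, and leaving out 1 library at a time left between 5 and 7.

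Summed over the 7 genes, knockdown reached 3729 and 3735 CPM and rescue 3099 and 2997, with NT2 at 3092 and 3268 and cysteamine at 3341 and 3483. As shares of listed counts the 7 genes made up 0.489% ± 0.0257 in NT2, 0.472% ± 0.0158 in cysteamine, 0.508% ± 0.00777 in knockdown and 0.373% ± 0.00234 in rescue (SD, n = 2 each). Rescue was thus lowest of the 4 groups on the share, whereas its summed level overlapped that of NT2 on the scaled level. The knockdown and rescue comparisons with NT2 share its libraries.

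**Figure D4:**
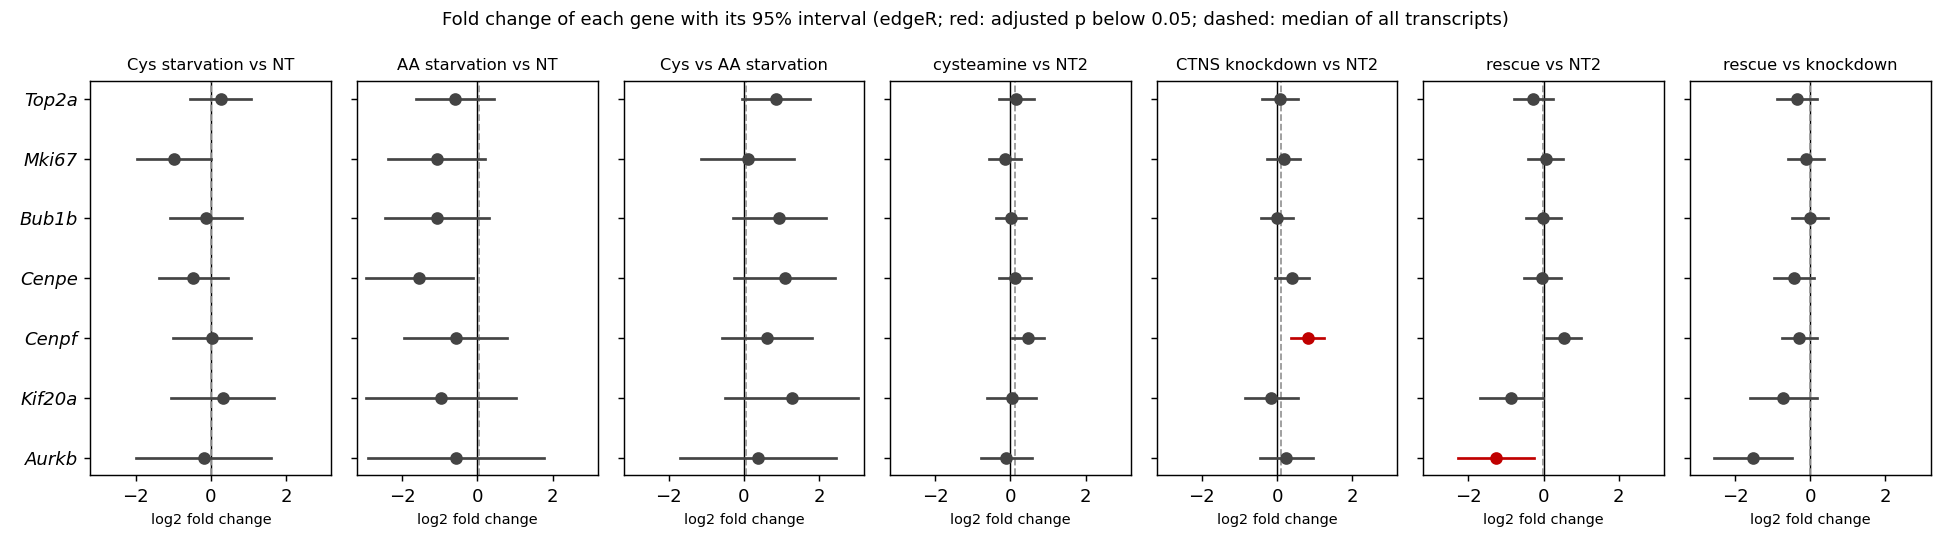
Log2 fold change of each gene with its 95% interval (horizontal axes) in 7 comparisons by edgeR; red marks an adjusted p below 0.05, and dashed lines are medians of all transcripts. The 2 red points are Cenpf in knockdown against NT2 (0.82) and Aurkb in rescue against NT2 (-1.26), and intervals of the starvation comparisons are the wider ones.

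Knockdown, directed at the cystine exporter, and cysteamine, which depletes lysosomal cystine, were also compared with each other. None of the 7 genes differed by the test (0 of 7, beside 24.7% of all transcripts, by edgeR), and Cenpf stood at 0.34 ± 0.20 (95% interval -0.09 to 0.77) and Mki67 at 0.32 ± 0.21. Without the 341 transcripts both were called, 2 of the 7, beside 167 of 1058 transcripts called higher and 220 lower. In rescue against cysteamine none was called (0 of 7, beside 30.4%), and Aurkb at -1.15 ± 0.48 (adjusted p = 0.0615) and Kif20a at -0.89 ± 0.40 (adjusted p = 0.0885) were the lowest. Top2a followed at -0.42 ± 0.24.

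Whether treatment effects differed from that of cysteine starvation was tested as a difference between effects, each against its own untreated group. For cysteamine none of the 7 passed (0 of 7, beside 6.79% of all transcripts), with Mki67 at 0.84 ± 0.51. For CTNS knockdown none passed either (0 of 7, beside 19.2%), and Mki67 was highest at 1.16 ± 0.51 (95% interval 0.08 to 2.24, adjusted p = 0.130 by edgeR). Leaving out the first NT library, in which Mki67 read 358 CPM against 882 in the other, gave a difference of 1.94. With library totals the Mki67 difference was 0.27 (adjusted p = 0.751).

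Where edgeR called 0 of the 7 genes, DESeq2 and limma on log2(CPM + 1) also called 0. DESeq2 gave an adjusted p to only 396 of 1399 transcripts in rescue against knockdown, 694 in Cys against NT and 775 in the cysteamine minus cysteine effect. A gene without one could not be called, so the DESeq2 result is not a full check in those comparisons. Without adjustment, an edgeR p below 0.05 was reached by 1 of the 7 for cysteamine against NT2 (Cenpf, beside 27.7% of all transcripts), 1 for rescue against knockdown (Aurkb, beside 11.0%) and 2 for rescue against cysteamine (Kif20a and Aurkb, beside 42.6%). It was reached by 0 of 7 for cysteine against full starvation (28.8% of all) and for knockdown against cysteamine (38.0%), by 0 for the difference between the cysteamine and cysteine effects (22.1%), and by Mki67 for that of knockdown (33.1%).

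Beyond the 7 genes, 23 of 103 other G2 and mitosis genes were listed, among them condensin subunits, kinesins and regulators of cytokinesis. In knockdown against NT2, Rangap1, which activates the GTPase activity of Ran, rose by 1.06 ± 0.19 on the log2 scale (adjusted p = 0.00101, edgeR). Ect2 (-1.56 ± 0.34), the exchange factor that activates RhoA in cytokinesis, Racgap1 (-0.85 ± 0.26), its partner in the centralspindlin complex, and Tmpo (-0.90 ± 0.28), a lamina protein, fell. The other 19 were not called, in a comparison where 30.8% of all transcripts were. The median of the 23 was 0.05, with 13 above 0. Cenpf rose in a comparison in which 1 other gene of the stage rose and 3 fell.

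In rescue against NT2, which shares the NT2 libraries, Rangap1 was called higher at 0.59, and Ect2 at -1.32, Racgap1 at -1.23 and Tmpo at -0.88 were called lower. Kif14, a midbody kinesin, was higher by 1.66 ± 0.34 (adjusted p = 0.00162). That made 2 of the 23 called higher and 3 lower, beside 31.5% of all transcripts called, with a median of -0.17. Of the 7 genes, Kif20a read -0.86, Aurkb -1.26 and Cenpf 0.53 in the same comparison. In cysteamine against NT2 Rangap1 alone was called, at 1.03, beside 10.5% of all transcripts. In cysteine against full starvation Kif14 alone was called, at -2.16 (adjusted p = 0.0112), beside 15.0%, and was opposite in sign to all 7 genes. None of the 23 was called in Cys or AA against NT, where the medians were 0.07 and -0.19, and none in rescue against knockdown (median -0.21, 16 of 23 below 0).

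The G1/S and DNA replication genes, which are transcribed ahead of the G2 genes under E2F control, gave 13 of 59 listed. In AA against NT 9 of the 13 were above 0, with a median of 0.23, where the 7 G2 and mitosis genes were all below 0 with a median of -0.96. No G1/S gene was called there, and the difference between the lists was not tested. In cysteamine Ccnd1 (1.05), the cyclin D1 gene, and Cdca7 (1.03) rose. In knockdown Rrm1 (-0.96), a ribonucleotide reductase subunit, fell and Pole (1.29), a polymerase subunit gene in the 341-transcript class, rose. In rescue Ccnd1 (1.001) and Pole (1.17) rose and Rrm1 (-0.95) and Blm (-1.90) fell. Over all transcripts, 10.5% were called in cysteamine, 30.8% in knockdown and 31.5% in rescue, each against NT2. None of the 24 listed cell cycle inhibitors and p53 targets was among the transcripts of the tables (0 of 24), so arrest genes are not described here.

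**Figure D5:**
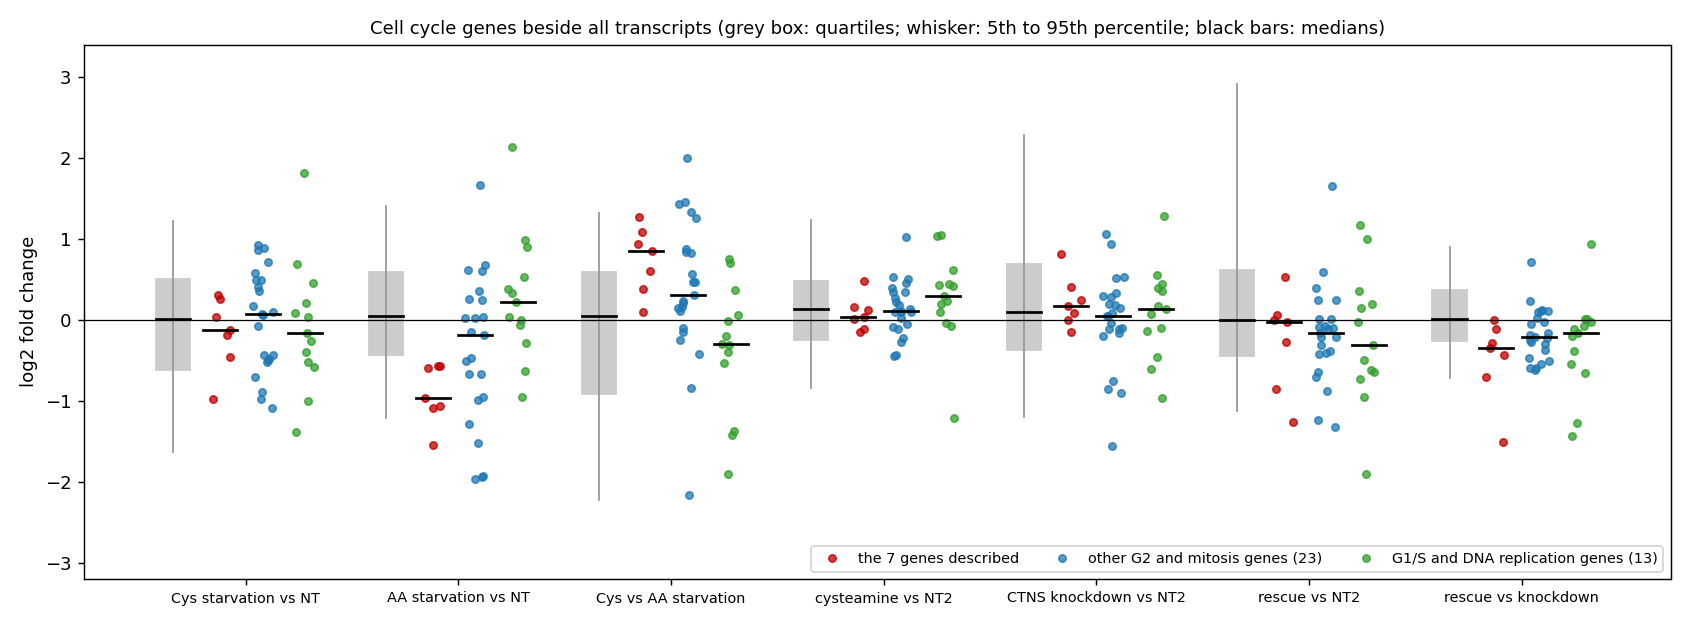
Log2 fold changes (vertical axis) of the 7 genes, 23 other G2 and mitosis genes and 13 G1/S and DNA replication genes as points in 7 comparisons, beside the quartiles and the 5th to 95th percentile of all 1399 transcripts in grey; black bars are medians. In AA against NT the 7 genes have a median of -0.96, beside -0.19 and 0.23 for the other lists.

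Correlations among the 7 genes from library to library were mixed. After centring on the mean of each experiment, Pearson's r between pairs of the genes had a median of 0.317 over the 6 libraries of the first experiment (from -0.573 to 0.883, 15 of 21 pairs above 0). Over the 8 libraries of the second it was 0.155 (from -0.559 to 0.826, 13 of 21). The transcripts outside the 7 whose pattern was most like their mean, by r over all 14 libraries, were Utp20 (0.908), Psmd12 (0.879), Wnk1 (0.871), Eif3d (0.809) and Bptf (0.801). In that order r was 0.943, 0.922, 0.942, 0.796 and 0.912 in the first experiment, and 0.762, 0.704, 0.516, 0.859 and 0.394 in the second. For the 7 genes, r with the mean they make up ran from 0.256 for Top2a to 0.902 for Cenpe over all 14 libraries. These are descriptions over libraries that share groups, depth and scaling. Counts of 1 to 57 per gene and library in the first experiment also weaken r, and shared variation of the 7 genes was not tested.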

How the data were processed

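RNA was extracted with TRIzol, captured on oligo(dT) beads, and fragments of 50 to 100 nucleotides were cut from a gel, tailed with poly(A) and amplified by PCR, per the labels' protocols; no molecular identifiers are named. bcl2fastq 2.20.0.422, cutadapt 2.8, Bowtie 1.2.3, STAR 2.7.10a and GRCm39 are named in the submitters' processing notes. How reads were counted, with which strand setting and annotation, is not given in the sources used here. The authors deposited whole-number counts per transcript, in tables named for CPM. Symbols came from GENCODE mouse release 21 on GRCm38 (1385 named, 14 not). edgeR 4.0.16 in R 4.3.3 fitted 7 group means over the 14 libraries (7 residual degrees of freedom) with TMM scaling and no filter, in two-sided quasi-likelihood tests of 9 comparisons and 2 differences between effects, adjusted over 1399 transcripts at 0.05. Alternatives were DESeq2 1.42.0, limma 3.58.1 on log2(CPM + 1), other scalings, a minimum mean count of 20, a replicate block, other untreated groups and each library left out. Log2 CPM for correlations used a prior count of 2. The fit was tested on simulated data. Exact binomial 95% intervals of count ratios are scaled by library size. No replicate pair differed by as little as counting noise (chi-square per degree of freedom 1.55 to 4.55). All lists and members were chosen with earlier results of these data known. The named genes of other lists were those called, up to 4 with the smallest p, and the 5 transcripts most like the members.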

Additional observations from a re-analysis of the deposited data

How the results depend on the processing

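Of 77 differences, 7 genes in 9 comparisons and 2 differences between effects, 32 kept their sign under every alternative run and 45 changed it at least once; their median sizes were 0.764 and 0.147. The number of the 7 genes called was refitted 148 times and moved in 26. Fits that left out 1 library assumed the lone sample to vary like the other groups. Against NT2, the Cenpf call in knockdown was lost in some of these fits and the Aurkb call in rescue in each. The Mki67 difference in the knockdown effect minus the cysteine effect was 1.94 without the first NT library and 1.16 with all libraries. Against the other untreated group, calls were 1 for Cys, 3 for AA (Top2a, Bub1b and Mki67), 0 for knockdown and 0 for rescue, and with both untreated groups 0 for rescue. Of all 1399 transcripts, the other untreated group gave 168 called higher and 80 lower for Cys, and 290 and 169 for AA. It gave 62 and 141 for knockdown, and 55 and 100 for rescue. Library totals gave 5 in Cys against AA (beside 474 of 1399 transcripts called higher and 74 lower) and 0 in knockdown against NT2. They gave 2 in rescue against NT2 (beside 199 and 259) and 1 in rescue against cysteamine (beside 187 and 218). limma gave 0 in knockdown and 0 in rescue against NT2, and DESeq2 0 in the latter. Without the 341 transcripts 1 gene was called for cysteamine against NT2 (beside 168 of 1058 transcripts higher and 159 lower) and 2 in knockdown against cysteamine (beside 167 and 220). In rescue against NT2 the count stayed at 1 but the gene changed from Aurkb (adjusted p = 0.0751) to Cenpf, as it did with the minimum mean count, where Aurkb was not tested. The second experiment alone gave 1 for cysteamine (beside 225 of 1399 transcripts higher and 150 lower), 2 for rescue against NT2 (279 and 299) and 2 for rescue against cysteamine (264 and 308). The cause of these moves was not tested.

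With replicate number as a block, 2 genes were called in rescue against NT2 (Kif20a, adjusted p = 0.0458, and Aurkb) and 1 in rescue against cysteamine (Kif20a). Of all 1399 transcripts, that fit called 292 higher and 207 lower in the former comparison, and 263 and 240 in the latter. The replicate numbers are not shown to pair libraries: deviations of same-numbered libraries correlated at -0.214 to 0.287 in the first experiment and at 0.0920 to 0.281 in the second, where 1 of 6 pairs of groups was under 0.1. A minimum mean count of 20 left 897 transcripts and dropped Kif20a and Aurkb, which have no value there. Over all transcripts, TMM gave 261 calls higher and 180 lower in rescue against NT2, and library totals 199 and 259. Counts of 1 to 57 per gene limit the first experiment.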

Other observations

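The untreated groups of the 2 experiments, which no comparison of the report sets against each other, gave these values for the 7 genes. NT minus NT2 ran from -0.55 for Aurkb to 0.22 for Cenpe on the log2 scale. Top2a stood at -0.48 ± 0.35 (SE), Bub1b at -0.46 ± 0.39 and Mki67 at -0.40 ± 0.38. Cenpf was at -0.40 ± 0.44 and Kif20a at -0.39 ± 0.60. None of the 7 passed the threshold (adjusted p from 0.344 to 0.767, edgeR), and the median of all transcripts was -0.15. The groups differ in experiment as well as in libraries, and these cannot be told apart.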
